A study of Rattus norvegicus with 8 samples.

Results

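The fibrous collagens I, III and V are described here across the growth plate of the rat femur through 5 genes, Col1a1, Col1a2, Col3a1, Col5a1 and Col5a2. Their members are all probe sets that the platform annotation maps to exactly 1 of these genes, which gave 9 of the 31042 probe sets tested and 5 of the 14217 genes with a probe set of a single name. Col3a1 had 1 probe set and the other genes had 2 each. For each gene the probe set with the highest mean over the arrays, called the brightest, stands for the gene.

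Gene expression was measured with 8 Affymetrix arrays in RNA of Rattus norvegicus, 2 arrays for each of 4 zones of the femur growth plate, the cartilage through which long bones lengthen. The zones are the perichondral zone, next to the fibrous sheath around the plate, the reserve zone of resting chondrocytes, the proliferative zone and the hypertrophic zone. Each zone has 1 array from rats aged 46 days and 1 from rats aged 42 days, both of RNA pooled from 3 rats, with no treatment or strain given in the labels. The sources used here give neither the method of dissection nor whether rats were shared between the pools of the zones.

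Type I collagen is a triple helix of Col1a1 and Col1a2 chains and is the main fibre of bone, tendon and perichondrium. Type III collagen, made of Col3a1 chains, forms finer fibres in soft connective tissue and vessel walls, and type V collagen, with Col5a1 and Col5a2 chains, sits inside type I fibrils and helps to start them and to limit their width. Hyaline cartilage is built instead on collagens II, IX and XI, and growth plate chondrocytes are known for little type I collagen, which makes these genes common markers of fibrous tissue and bone at the edges of a plate.

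The RefSeq table of promoters (build GRCr8) held an entry for 3 of the 5 genes, Col1a2, Col5a1 and Col5a2. The stretches before the starts of Col1a2 and Col5a2 are shown because the brightest probe sets of these genes ran closest together of any chain I and chain V pair (Pearson r = 0.95 over 8 arrays). Capitals mark a TATA box, TATAAA, and a CCAAT box, which reads ATTGG on this strand.
Col1a2: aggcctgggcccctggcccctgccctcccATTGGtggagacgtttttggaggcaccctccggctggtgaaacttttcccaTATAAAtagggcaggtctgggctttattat
Col5a2: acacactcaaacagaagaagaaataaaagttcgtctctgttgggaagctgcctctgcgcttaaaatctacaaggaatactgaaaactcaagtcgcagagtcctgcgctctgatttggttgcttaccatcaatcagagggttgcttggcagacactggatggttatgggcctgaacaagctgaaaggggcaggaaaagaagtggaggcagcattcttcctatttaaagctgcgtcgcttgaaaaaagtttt
The Col1a2 stretch lies at chr4:33518307-33518416 on the plus strand, with the CCAAT box 221 and the TATA box 170 bases before the annotated start. It is cut to the first 110 of the 250 bases searched and ends 141 bases before the start. The Col5a2 stretch lies at chr9:55090152-55090401 on the minus strand and ends 1 base before the start. These boxes and the GC box, GGGCGG, were searched on both strands in the 250 bases before each start, and no match overlapped another. The Col5a2 stretch held none of these letters, and the Col5a1 stretch held GGGCGG 127 bases before its start. Among 33469 promoters of the same length, 12.9% held TATAAA, 34.0% held CCAAT, 30.5% held GGGCGG and 4.58% held both of the first pair. These matches describe the letters and carry no statement on the factors that read them. The member genes lie on chromosome 10 (Col1a1), chromosome 4 (Col1a2), chromosome 3 (Col5a1) and chromosome 9, where Col3a1 and Col5a2 are neighbours with no other protein-coding gene listed between them.

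The deposited values are linear array intensities, and differences between zones are given on the scale of log2(intensity + 16) after quantile normalization between arrays. As a yardstick of background, 32 genes typical of other organs were read on the same arrays. Their 0.95 quantile, 9.19 on the log2 scale or an intensity of about 582, is called the other-organ level. Median intensities were 308 and 269 in the perichondral arrays at 46 and 42 days, and 227 to 349 over all arrays. The ratio of the 3′ to the 5′ control probe set of Gapdh, a sign of RNA integrity, ran from 3.63 to 8.15, with the highest value in the reserve array at 42 days. Col2a1, the main collagen of cartilage, lay between 39132 and 250039 and was far above the other-organ level in every array. The zone model called 12 of all 31042 probe sets (0.0387%) by the F test over zones at an adjusted p below 0.05.

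Both proliferative arrays lay far below the perichondral and reserve arrays for type I collagen, and the hypertrophic arrays were split by age. The brightest Col1a1 probe set had an intensity of 8142 at 46 days and 55805 at 42 days in the perichondral zone, and of 43704 and 65847 in the reserve zone. In the proliferative zone it had 654 and 1098, and in the hypertrophic zone 2292 at 46 days and 93669 at 42 days. The hypertrophic 42-day array was thus the highest of the 8 and the hypertrophic 46-day array the lowest outside the proliferative zone, so the hypertrophic zone overlapped the perichondral and the reserve zone. The second Col1a1 probe set had 2527 and 6678 in the perichondral zone, 11246 and 15931 in the reserve zone, 725 and 313 in the proliferative zone, and 862 and 13920 in the hypertrophic zone, at 46 and 42 days in each. It put the arrays in nearly the same order, with r = 0.97 between the Col1a1 probe sets over 8 arrays.

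Col1a2, the partner chain of type I collagen, had 26371 and 54147 in the perichondral zone and 62369 and 62408 in the reserve zone with its brightest probe set, at 46 and 42 days. It had 2173 and 5110 in the proliferative zone, and 4042 and 108828 in the hypertrophic zone. The second Col1a2 probe set had 1689 and 5425 in the perichondral zone, 11212 and 13763 in the reserve zone, 264 and 254 in the proliferative zone, and 367 and 6715 in the hypertrophic zone. With both probe sets the 3 lowest arrays were the proliferative ones and the hypertrophic 46-day array. The brightest probe sets of Col1a1 and Col1a2 lay above the other-organ level in all 8 arrays, while the second ones did so in 7 and 5 arrays.

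**Figure D1:**
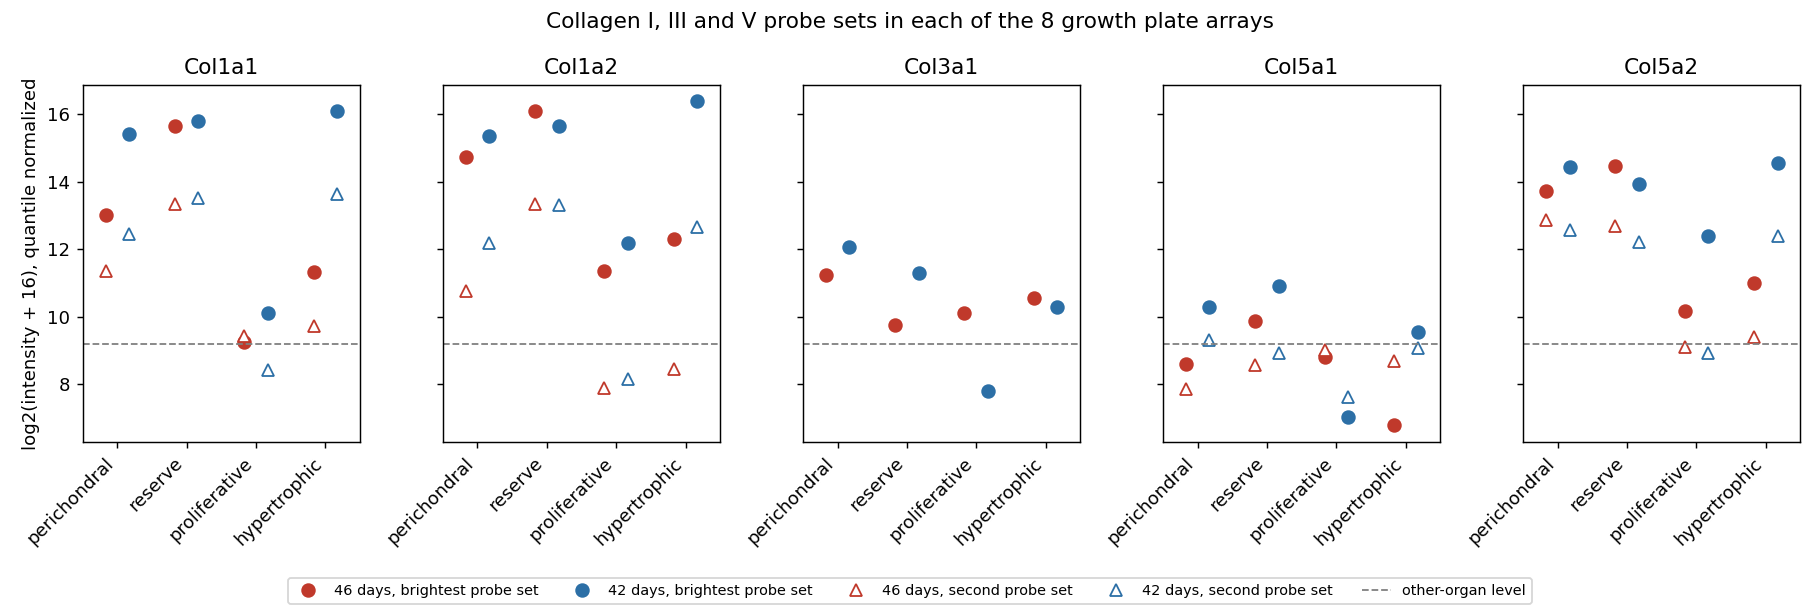
Level of each member probe set in each array, as quantile-normalized log2(intensity + 16), by zone from left to right, with 46-day arrays in red and 42-day arrays in blue. Filled circles are the brightest probe set of a gene, open triangles the second, and the dashed line is the other-organ level of 9.19. Col1a1, Col1a2 and Col5a2 sit low in both proliferative arrays and wide apart in the hypertrophic zone. Col5a1 lies on both sides of the line, and Col3a1 lies above it in 7 of 8 arrays.

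On the normalized log2 scale Col1a1 averaged 15.73 ± 0.10 in the reserve zone and 9.68 ± 0.62 in the proliferative zone (SD, n = 2 each). The difference was 6.05 with an SE of 1.10, a fold of 66.1, and it missed the threshold after Benjamini-Hochberg adjustment over all probe sets (limma, adjusted p = 0.0713). For Col1a2 the reserve zone averaged 15.87 ± 0.30 and the proliferative zone 11.77 ± 0.57, a difference of 4.10 with an SE of 0.98 (adjusted p = 0.291). The second Col1a2 probe set differed by 5.32 (SE 0.94, adjusted p = 0.0606) and the second Col1a1 probe set by 4.50 (SE 0.89, adjusted p = 0.106). Every one of these 4 probe sets had both reserve arrays above both proliferative arrays, and the gap between the zones was several times the gap between the ages within them. The call depended on how the spread was estimated, to which the hypertrophic arrays and the ages contribute. Of 17 alternative ways of processing or fitting, Col1a1 passed in 4 and Col1a2 in 3. All of these are given next, and neither gene passed in the rest. Over the 17 the difference ran from 5.27 to 6.48 for Col1a1 and from 3.70 to 4.71 for Col1a2. Without the hypertrophic 46-day array the adjusted p of Col1a1 was 0.00440 and that of Col1a2 0.0466, and without the hypertrophic 42-day array they were 0.00187 and 0.0194. With all 8 arrays and age as a term, they were 0.00085 and 0.0207, beside 60 of all probe sets called. In a fit on the reserve and proliferative arrays alone the adjusted p was 0.00125 for Col1a1 and 0.104 for Col1a2. All probe sets tested gave 7 calls in the main comparison (0.0226% in the higher direction), 47 and 35 with those arrays left out in turn, and 27 in the fit on these zones alone.

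Against the proliferative zone, the perichondral zone also had type I collagen probe sets without overlap. Col1a1 averaged 14.22 ± 1.68 in the perichondral zone, a difference of 4.54 (SE 1.10, 23.2-fold, limma adjusted p = 0.928), and Col1a2 averaged 15.04 ± 0.45, a difference of 3.28 (SE 0.98, adjusted p = 0.963). With age as a term the adjusted p of Col1a1 in this comparison was 0.0326, beside 13 of all probe sets called, against 0 without the term. Between perichondral and reserve zones the difference was -1.51 for Col1a1 (SE 1.10) and -0.83 for Col1a2 (SE 0.98), with an adjusted p of 1.0 for both. All 4 type I probe sets had both perichondral arrays below both reserve arrays on the normalized scale, and the mean difference of Col1a1 was smaller than the SD of its perichondral arrays. Against the hypertrophic zone no type I difference passed either. Col1a1 differed by 2.02 between the reserve and the hypertrophic zone (SE 1.10, adjusted p = 0.667) and by -4.03 between the proliferative and the hypertrophic zone (adjusted p = 0.804). Leaving out the hypertrophic 42-day array moved the reserve difference of Col1a1 to 4.40, and leaving out the 46-day one moved the proliferative difference to -6.40. The size of these differences thus depended on which hypertrophic array was kept.

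Type III collagen had another order of arrays, with the perichondral zone on top. Col3a1 had 2342 at 46 days and 4873 at 42 days in the perichondral zone, 837 and 2900 in the reserve zone, 1066 and 198 in the proliferative zone, and 1437 and 1211 in the hypertrophic zone. It lay above the other-organ level in 7 arrays and below it in the proliferative 42-day array. The perichondral arrays lay above the arrays of the proliferative and hypertrophic zones and overlapped those of the reserve zone, where the 46-day array was among the low ones. The perichondral mean was 11.66 ± 0.59 against 8.96 ± 1.62 in the proliferative zone, a difference of 2.70 (SE 0.74, limma adjusted p = 0.963). The differences were 1.13 from the reserve and 1.24 from the hypertrophic zone (SE 0.74 each, adjusted p = 1.0 and 0.853). Reserve and proliferative arrays overlapped, with a difference of 1.57 (SE 0.74, adjusted p = 0.654). Unlike the type I chains, Col3a1 in the hypertrophic zone differed little between ages, by 0.28 for 46 minus 42 days.

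Of the type V chains, Col5a2 lay above the other-organ level in 8 and 6 arrays with its brightest and second probe set, and Col5a1 in 4 and 1. Col5a2, which encodes the alpha-2 chain, had 13813 and 31828 in the perichondral zone and 23680 and 20210 in the reserve zone with its brightest probe set, at 46 and 42 days. It had 1098 and 5919 in the proliferative zone, and 1867 and 26352 in the hypertrophic zone. The second Col5a2 probe set had 7417 and 7506 in the perichondral zone, 6986 and 6025 in the reserve zone, 601 and 451 in the proliferative zone, and 699 and 5628 in the hypertrophic zone. Both probe sets had the perichondral and reserve arrays above the proliferative ones and a wide split between the hypertrophic arrays, as the type I chains did. The brightest probe set differed by 2.80 between the perichondral and proliferative zones (SE 0.93, limma adjusted p = 0.963) and by 2.93 between the reserve and proliferative zones (SE 0.93, adjusted p = 0.469). For the second probe set these differences were 3.71 (SE 0.74, adjusted p = 0.432) and 3.43 (SE 0.74, adjusted p = 0.173). Perichondral and reserve zones overlapped for both, with differences of -0.13 and 0.28.

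Col5a1, which encodes the alpha-1 chain, had 395 and 1260 in the perichondral zone, 921 and 2130 in the reserve zone, 507 and 104 in the proliferative zone, and 103 and 715 in the hypertrophic zone, at 46 and 42 days. These are the values of its brightest probe set. The second ran from 169 in the proliferative 42-day array to 597 in the perichondral 42-day array. Both reserve arrays of the brightest probe set lay above both proliferative ones, with a difference of 2.46 (SE 0.97, limma adjusted p = 0.610). They also lay above both hypertrophic ones, with a difference of 2.23 (SE 0.97, adjusted p = 0.591), and the perichondral arrays overlapped all other zones. The second probe set overlapped in both comparisons, with differences of 0.43 and -0.13. Near the other-organ level these probe sets give a weak reading, and their correlation with each other was 0.60 over 8 arrays, against 0.90 for the Col5a2 probe sets.

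Across all 9 member probe sets, none passed an adjusted p below 0.05 in limma, in any of the 6 zone comparisons or in the F test. Over all probe sets the share called was 0.00% in both directions between the perichondral zone and the reserve or proliferative zone. It was 0.0290% higher in the perichondral than in the hypertrophic zone, 0.0193% higher and 0.00322% lower in the reserve than in the hypertrophic zone, and 0.00322% higher and 0.00966% lower in the proliferative than in the hypertrophic zone. The unadjusted F test passed for 7 of 9 members, against 6.20% of all probe sets, and the smallest adjusted p was 0.209, shared by the brightest Col1a1 and the second Col1a2 probe set. The F value of Col1a1 was 11.1 with all arrays. It was 27.4 without the hypertrophic 46-day array and 29.4 without the hypertrophic 42-day array, with the fits without other arrays not given here. For Col1a2 it was 6.51 with all arrays and 18.2 without the hypertrophic 42-day array. With age as a term the F test gave Col1a1 an adjusted p of 0.00224, beside 96 of all probe sets called, against 12 without the term. Both reserve arrays lay above both proliferative arrays for 7 of 9 members (4 of 5 genes), against 18.0% of all probe sets, with a median difference of 3.43 over members and -0.07 over all probe sets. Both perichondral arrays lay above both proliferative arrays for 7 of 9 (4 of 5 genes), against 16.3%, with medians of 2.96 and -0.02. An unadjusted limma p below 0.05 was met by 7 members in the reserve comparison, against 7.64% of all probe sets, and by 7 members in the perichondral one, against 1551 of the 31042 probe sets. On the normalized scale both proliferative arrays lay below both hypertrophic arrays for 6 of 9, against 15.8%, with medians of -1.88 and 0.00, and 5 members had an unadjusted p below 0.05, against 5.52%.

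Perichondral arrays lay below reserve arrays without overlap for 4 of 9 members, all of type I, against 16.1% of all probe sets. No member had an unadjusted p below 0.05 there, against 3.75%. Against the hypertrophic zone, 2 of 9 members lay higher without overlap in the perichondral zone (16.7% of all probe sets) and 2 of 9 in the reserve zone (17.7%), which is near the background share. The medians over members were 0.93 and 1.56 in these comparisons, and 1 and 2 members had an unadjusted p below 0.05, against 6.17% and 8.10% of all probe sets. In these bulk samples, fewer cells of a type and less RNA per cell cannot be told apart.

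**Figure D2:**
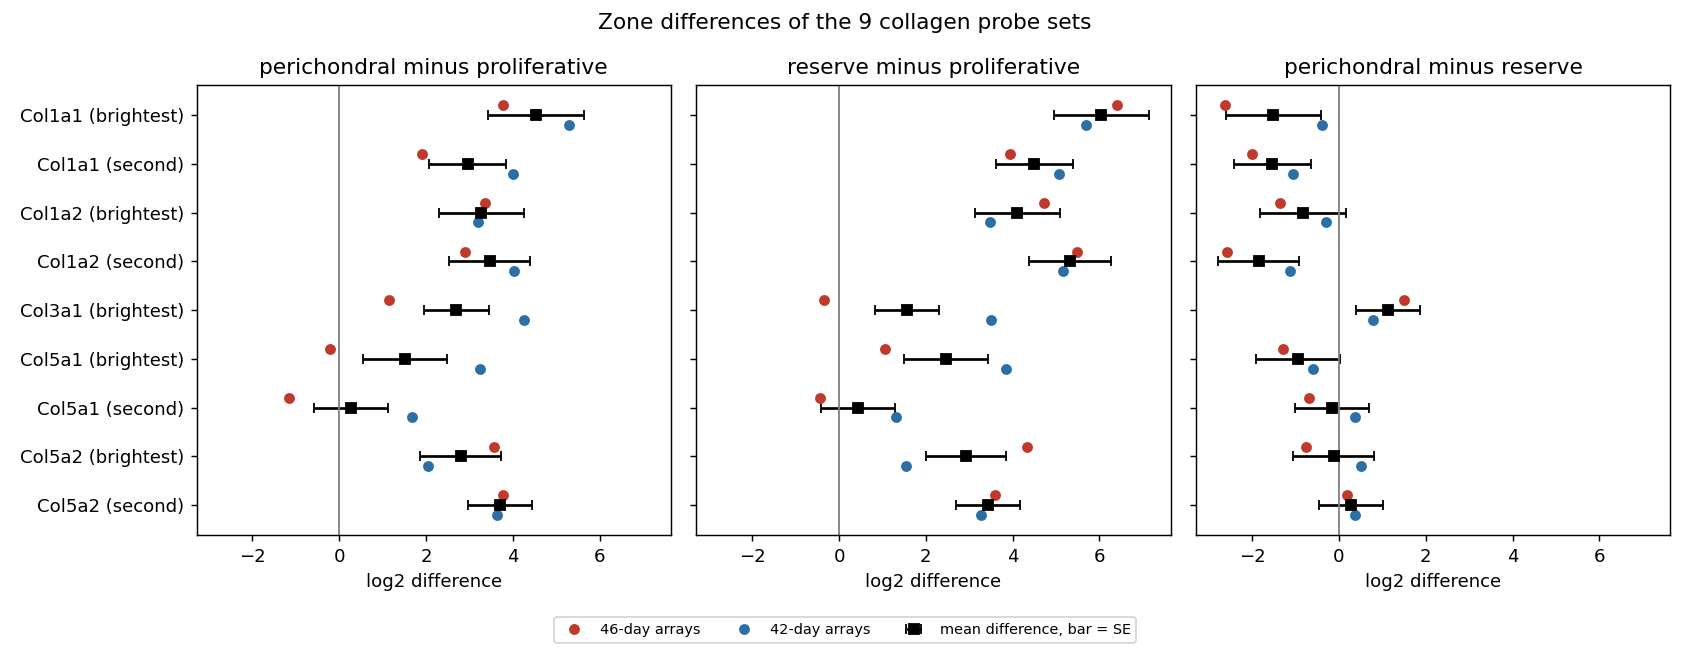
Log2 differences of the 9 member probe sets between zones, with the black square for the mean difference, its bar for the SE of the limma fit, and red and blue points for the difference between the 46-day and between the 42-day arrays. The type I and Col5a2 probe sets lie right of 0 at both ages against the proliferative zone, the points of Col3a1 and Col5a1 fall on both sides of 0 there in part, and the differences between perichondral and reserve zones are small or negative except for Col3a1.

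The likeness among the members was described by Pearson's r over the 8 arrays, and the part of array-wide factors in it was not tested. Col1a1 and Col1a2 had r = 0.98, Col1a1 and Col5a2 0.91, and Col1a2 and Col5a2 0.95. Col5a1 had 0.78 to Col1a1 and 0.66 to Col5a2, its partner in type V collagen, and 0.85 to the second probe set of either type I gene. Col3a1 had 0.51 to Col1a1, 0.45 to Col1a2 and 0.58 to Col5a1. It had 0.31 to Col5a2, its neighbour on the chromosome, and 0.61 to the second Col5a2 probe set.

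Whether any pair of members differed in zone pattern was tested on the log2 ratio of their levels within each array. The ratio of Col1a1 to Col3a1 was 1.78 at 46 days and 3.33 at 42 days in the perichondral zone, 5.90 and 4.50 in the reserve zone, -0.86 and 2.31 in the proliferative zone, and 0.78 and 5.81 in the hypertrophic zone. Both reserve arrays had a ratio above both perichondral and both proliferative arrays, while the hypertrophic arrays spanned nearly the whole range. None of the 10 pairs passed the exact permutation test over 2520 assignments of arrays to zones, for which 0.0095 is the smallest p the design allows, so no lone pair could pass after adjustment over the 10. The smallest p was 0.0857 for Col1a1 over Col5a2 (adjusted over the 10 pairs, 0.571), and Col1a1 over Col3a1 had an exact permutation p of 0.410 (adjusted 0.599).

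**Figure D3:**
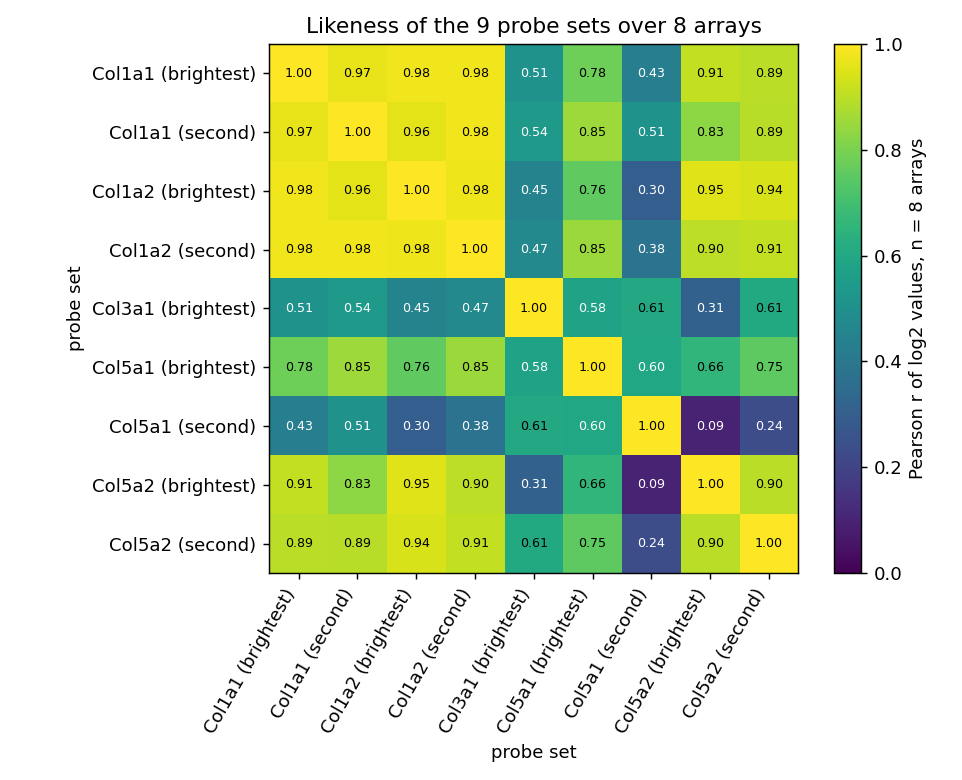
Pearson r of log2 levels over the 8 arrays between each pair of the 9 member probe sets, from dark (0) to yellow (1), with the value printed in each square. The type I and Col5a2 probe sets have r from 0.83 to 0.98 with each other, and Col3a1 has r from 0.31 to 0.61 with them.

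Among 7714 other genes with a mean above the median, those closest in pattern were named by rule, the 5 highest r per member over 8 arrays. For Col5a2 the first was Col24a1 (r = 0.99), another fibril-forming collagen, which also led the list of Col1a2 (r = 0.97). Col24a1 had intensities of 2973 and 5765 in the perichondral zone, 4650 and 5288 in the reserve zone, 329 and 982 in the proliferative zone, and 564 and 7792 in the hypertrophic zone, at 46 and 42 days. It shared with the type I chains the low proliferative arrays and the split hypertrophic ones. Closest to Col1a1 were Baz1b, Sart3, Wsb2, Evl and Abcc4 (r from 0.96 to 0.98), and Evl also stood in the list of Col1a2, beside Fmr1, Pip4k2a and Btaf1. Closest to Col5a2 after Col24a1 were Lrch2, Mettl9, Anxa11 and Meaf6 (r from 0.97 to 0.98). Col5a1 was closest to Lpin2, Cpe, Dnajb11, Dynll2 and Gpr107 (r from 0.96 to 0.97), and Col3a1 to Ahnak2, Med6, Thra, Chrd and Ctps2 (r from 0.91 to 0.97). These names describe likeness over 8 arrays, and nothing is drawn from them.

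Genes that make, bind or degrade fibrous collagens were followed in lists, each gene by its brightest probe set. Of 11 other collagens, listed apart from the cartilage collagens, all 11 had a positive difference between the perichondral and proliferative zones (median 0.93). Between the reserve and proliferative zones 9 did (median 0.42), and none passed the threshold. The largest were Col15a1, a basement membrane collagen, at 2.86 and 3.08, and Col24a1 at 2.85 and 3.02. The 7 cartilage collagens were positive in 3 of 7 in each comparison, and Col2a1 differed by 0.38 between the perichondral and proliferative zones. Between the reserve and hypertrophic zones 1 of these 7 passed in the lower direction, the hypertrophic collagen Col10a1, at -4.77 (SE 0.72, limma adjusted p = 0.023). It was not called with either reserve, either perichondral or either proliferative array left out (adjusted p from 0.053 to 0.469).

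Genes of procollagen folding were measured for 17 of 18, with 11 positive in both comparisons with the proliferative zone (medians 0.29 for the perichondral and 0.55 for the reserve zone) and no call. Serpinh1, the collagen chaperone, averaged 8.76 ± 2.50 in the perichondral zone and 9.74 ± 0.11 in the proliferative zone, so it did not follow the type I chains, with r = 0.03 to Col1a1 over 8 arrays, a gene picked after its values were seen. Enzymes of propeptide removal and crosslinking were measured for 6 of 13, with 4 positive in both comparisons and no call, and Loxl3, a lysyl oxidase, had the largest reserve difference at 2.99 (SE 1.13). Proteins that bind collagen fibrils were positive for 14 of 17 in both comparisons (medians 1.28 and 1.46), again without a call. Among them were Postn and Ogn, proteins of fibrous matrix, at 3.44 and 3.13 between the perichondral and proliferative zones, and Fmod, a regulator of fibril width, at 3.34 between the reserve and proliferative zones. Ogn passed between the perichondral and hypertrophic zones, with 4.50 (SE 0.74, limma adjusted p = 0.0484), the sole call of that list in all 6 comparisons. It was not called without the hypertrophic 46-day array or without any 1 of the perichondral or reserve arrays (adjusted p from 0.087 to 0.999).

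Collagen receptors were measured for 5 of 10, all positive in both comparisons (medians 1.52 and 2.08) with no call, and the largest were Itga11, an integrin that binds fibrous collagen, at 2.43 for the perichondral zone and Itgb1 at 2.49 for the reserve zone. Degrading enzymes and their inhibitors were positive for 10 of 10 measured in the reserve zone against the proliferative zone, and 2 of them passed. Mmp9, a gelatinase of osteoclasts, was higher by 7.11 (SE 0.93, limma adjusted p = 0.00655), and Mmp13, the collagenase of late chondrocytes and osteoblasts, by 6.13 (SE 0.66, adjusted p = 0.000948). Both were lower in the proliferative than in the hypertrophic zone, with differences of -6.55 (adjusted p = 0.025) and -5.80 (adjusted p = 0.004). Between the reserve and proliferative zones the Mmp9 call was lost without any 1 of the arrays of these zones (adjusted p from 0.071 to 0.456), and the Mmp13 call without the reserve 42-day array (0.085) or the proliferative 46-day array (0.071). Between the proliferative and hypertrophic zones the Mmp9 call was lost without any 1 of the reserve, proliferative or hypertrophic arrays (adjusted p from 0.082 to 0.266), and the Mmp13 call without either proliferative array (0.103 and 0.151). Inducers of collagen in the TGF-beta, CCN and PDGF families were positive for 9 of 11 in the perichondral and 7 of 11 in the reserve zone, with no call. Pdgfra, the PDGF receptor of mesenchymal and fibrous cells, had 14115 and 15066 in the perichondral zone, 17160 and 16795 in the reserve zone, 1542 and 1728 in the proliferative zone, and 2135 and 2440 in the hypertrophic zone. Its hypertrophic arrays stayed close together, unlike those of type I collagen, and its reserve to proliferative difference of 3.10 (SE 0.53) had an adjusted p of 0.0563.

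Markers of other cells in the dissected tissue also differed between arrays, and their part in the results was not tested. Bone cells were followed with 8 of 11 listed genes measured, and their summed intensity was 14463 and 9144 in the perichondral zone, 44028 and 38398 in the reserve zone, 3556 and 3105 in the proliferative zone, and 7524 and 80097 in the hypertrophic zone, at 46 and 42 days. As for Col1a1, the hypertrophic 42-day array was highest and the proliferative arrays lowest. Ibsp and Dmp1 carry most of this sum in its highest arrays. Alpl, the alkaline phosphatase of mineralizing cells, had 825 and 642 in the hypertrophic zone at 46 and 42 days, and 3 of the 8 genes averaged lower in the perichondral than in the proliferative zone. Ibsp, bone sialoprotein, had 10934 and 7555 in the perichondral zone, 22244 and 30422 in the reserve zone, 58 and 1397 in the proliferative zone, and 4461 and 62490 in the hypertrophic zone. Its r was 0.86 to Col1a1, 0.86 to Col1a2 and 0.83 to Col5a2, against 0.31 to Col3a1 and 0.39 to Col5a1, over 8 arrays and picked after its values were seen. Dmp1, a matrix protein of osteocytes, had 1149 and 194 in the perichondral zone, and 14627 and 5066 in the reserve zone. Its r was 0.67 to Col1a1, 0.70 to Col1a2 and 0.57 to Col5a2, against -0.05 to Col3a1 and 0.36 to Col5a1. In the hypertrophic zone Phex (76 and 8.7 at 46 and 42 days) and Sost (398 and 234) were lower at 42 days, as Alpl was. Both lay below the other-organ level there. Bglap (52 and 1030), Spp1 (402 and 683) and Mepe (306 and 1423) were higher at 42 days. No measured bone marker was listed at 0. Bone markers above the other-organ level numbered 2 and 1 of 8 in the perichondral arrays, 5 and 6 in the reserve, 1 and 1 in the proliferative, and 3 and 6 in the hypertrophic arrays.

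The list of fibrous perichondrium, 11 of 12 genes measured, summed to 32921 and 49164 in the perichondral zone, 34569 and 31754 in the reserve zone, 4221 and 12090 in the proliferative zone, and 5321 and 20757 in the hypertrophic zone. Lum, Pdgfra and Ogn carry most of this sum in its highest arrays. Lum had 9217 and 14108 in the perichondral zone, 11613 and 3725 in the reserve zone, 539 and 6687 in the proliferative zone, and 136 and 14615 in the hypertrophic zone. Pdgfra, given above, had its highest intensities in the reserve zone. Ogn had 5766 and 12746 in the perichondral zone and 2400 and 8952 in the reserve zone. Postn, a small part of the sum, had 1076 and 3038 in the perichondral arrays, and all its arrays outside that zone lay below the other-organ level. Marrow white cells, 8 of 10 measured, summed to 745 and 3520 in the perichondral zone, 40459 and 42604 in the reserve zone, 935 and 1756 in the proliferative zone, and 1472 and 21388 in the hypertrophic zone. Osteoclast markers, 6 of 9 measured, summed to 935 and 1635, 8745 and 21696, 1299 and 429, and 5677 and 5222 in the same order of zones. Thus the reserve arrays and the hypertrophic 42-day array, 3 of the 4 arrays with the most Col1a1, also had the most white cell signal, and the perichondral arrays had type I collagen with little of it. Erythroid markers, 6 of 8 measured, summed to 1627 and 1738 in the perichondral zone, 38806 and 13624 in the reserve zone, 3484 and 1788 in the proliferative zone, and 2756 and 11298 in the hypertrophic zone. Of tendon markers 4 of 7 were measured, and they summed to 2911 and 14770 in the perichondral zone, 4671 and 24288 in the reserve zone, 973 and 2584 in the proliferative zone, and 1107 and 1256 in the hypertrophic zone. Fmod, also a fibril-binding protein of cartilage, averaged 12.33 ± 1.48 in the perichondral and 9.66 ± 1.54 in the proliferative zone on the log2 scale (SD, n = 2 each). Its log2 difference was 2.67 (limma adjusted p = 0.963) between these zones and 3.34 (limma adjusted p = 0.414) between reserve and proliferative, neither a call. Scx and Tnmd, which define tendon, lay below the other-organ level in all 8 arrays.

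**Figure D4:**
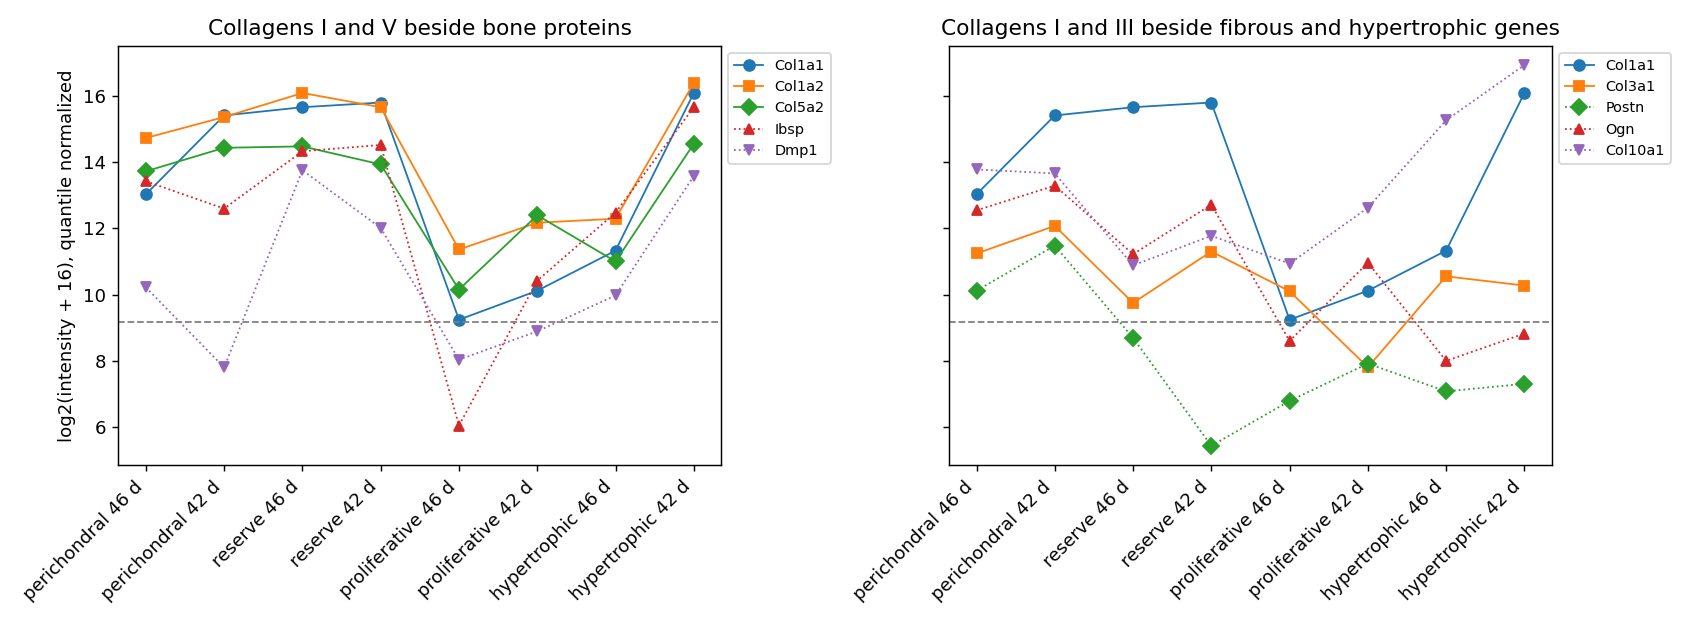
Levels of collagen genes (solid lines) and of marker genes (dotted lines) in each array, as quantile-normalized log2(intensity + 16), with the other-organ level dashed; lines join points to guide the eye and the arrays have no order within a zone. On the left Ibsp runs with Col1a1, Col1a2 and Col5a2. Its lowest value is in the proliferative 46-day array and its highest in the hypertrophic 42-day array. Dmp1 is lowest in the perichondral 42-day array, where the type I chains are high. On the right Postn lies above the dashed line in the perichondral arrays alone, and Col10a1 is highest in the hypertrophic arrays.

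Age was compared with zone as a covariate, 1 array per age and zone. On the normalized scale the difference for 46 minus 42 days was -2.04 for Col1a1 (SE 0.52, limma adjusted p = 0.246), -1.28 for Col1a2 (SE 0.53, adjusted p = 0.538), 0.05 for Col3a1 (SE 0.51, adjusted p = 0.990), -0.92 for Col5a1 (SE 0.64, adjusted p = 0.731) and -1.49 for Col5a2 (SE 0.48, adjusted p = 0.443). No member and no other probe set passed (0.00% of all), while 4 of 9 members had an unadjusted p below 0.05, against 8.43% of all probe sets. The brightest Col1a1 probe set lay lower in the 46-day array of all 4 zones, with differences of -2.38 in the perichondral, -0.14 in the reserve, -0.87 in the proliferative and -4.76 in the hypertrophic zone. The second Col1a1 probe set lay higher at 46 days in the proliferative zone, by 0.99. Over the zones the second probe sets differed by -1.04 for Col1a1, -1.47 for Col1a2, -0.19 for Col5a1 and -0.51 for Col5a2 (limma adjusted p = 0.630, 0.481, 0.963 and 0.809). With each array centred on its median in place of quantile normalization the Col1a1 difference was -2.60, with an adjusted p of 0.0386, beside 140 probe sets called. The median intensity was higher in the 46-day array of every zone, and the part of this in the result was not tested.

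The gap between ages was widest in the hypertrophic zone. There the 46-day array was lower by more than 1 on the log2 scale for 7 of 9 members, against 24.6% of all probe sets, with 1 array per age and no test. In deposited intensity the 42-day array was 40.9-fold the 46-day array for Col1a1, 26.9-fold for Col1a2, 14.1-fold for Col5a2 and 6.96-fold for Col5a1, against 0.843-fold for Col3a1. With the second probe sets it was 16.2-fold for Col1a1, 18.3-fold for Col1a2, 8.05-fold for Col5a2 and 1.18-fold for Col5a1. Both Col5a1 probe sets lay below the other-organ level in the 46-day array. Of all probe sets, 0.261% had a difference as low as that of Col1a1 in this zone, 0.805% as low as that of Col1a2, and 57.4% as low as that of Col3a1. Bone, marrow white cell, erythroid and fibrous perichondrium sums were also higher in the 42-day array, as given above. So were the sum of chondrocyte markers, 7 of 9 measured (59398 at 46 days and 238037 at 42 days), and that of the 7 cartilage collagens (96770 and 546365). The osteoclast sum (5677 at 46 days and 5222 at 42 days) and the tendon sum (1107 and 1256) differed little. Col10a1, the mark of hypertrophic chondrocytes, had 27994 at 46 days and 169191 at 42 days. In the perichondral zone 5 of 9 members lay lower in the 46-day array by more than 1 (21.7% of all probe sets), and in the reserve zone 2 of 9 (20.2%). In the proliferative zone 1 member lay lower in the 46-day array (24.0% of all probe sets) and 3 lay above (23.9%), among them Col3a1 by 2.29 and Col5a1 by 1.77, for which the 42-day array lay below the other-organ level.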

How the data were processed

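The deposited table holds linear array intensity values for 31099 probe sets in 8 arrays, made by the authors. Per the submitters' processing notes, MAS5, GCOS and RMA were used, with neither version nor role stated. Per the labels' protocols, Qiagen columns gave total RNA, which was amplified with a Nugen kit and labelled with biotin. The build was not given in the sources used here. Detection calls were not used, and 2 arrays per zone limit the precision.

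After removal of 57 control probe sets, the intensities of 31042 were taken as log2(intensity + 16). This scale understates the difference of dim genes. Array medians on it differed by 0.589, above a set gap of 0.1, so arrays were quantile normalized with limma 3.58.1 in R 4.3.3. Of the probe sets, 20826 had 1 symbol in the platform annotation, 436 had several and 9780 had none. Probe sets with several symbols named no gene, and 20758 matched RefSeq gene identifiers with 0 symbols updated. No filter on dim probe sets was used.

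The model had a mean for each zone and used all 8 arrays (empirical Bayes with trend, 4 residual and 12.58 prior degrees of freedom), with an F test over zones and 6 pairs of zones. Age was fitted with zone as covariate. Adjusted p-values are Benjamini-Hochberg over all probe sets, two-sided, with a threshold of 0.05. Both ages stand as replicates of a zone, as in the series design, so the p-values rest on the spread between pools of unlike age. Member pairs were compared by an exact permutation test of the between-zone sum of squares, adjusted over 10 pairs.

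The named genes are all members, the 5 genes most like each member, and from each list up to 3 genes past the threshold or else the 2 with the largest difference. The members, lists and rules were chosen with earlier results of these data known. The same ages in every zone could pair the arrays: the differences between ages correlated between zones with r from 0.022 to 0.081 over all probe sets and from 0.058 to 0.310 over the brightest 6209. Since not every pair of zones passed 0.1 in either, the arrays were not treated as paired. Alternatives were other normalizations, pseudocounts of 1 and 64, a filter, the RNA integrity ratio as covariate, the mean of all probe sets of a gene, and each array left out. The fit was tested on simulated data. Promoter sequences came from RefSeq, build GRCr8.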

Additional observations from a re-analysis of the deposited data

Results flagged for a closer look

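The results below had opposite signs in the 46-day and the 42-day arrays of the same zones, with 1 array per zone and age, so the difference between ages was not tested. All values are log2 differences.

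Most of them rest on the hypertrophic zone, where the 42-day array lay far above the 46-day array in type I collagen and Col5a2. Between the perichondral and hypertrophic zones Col1a1 differed by 1.70 at 46 days and -0.68 at 42 days, Col1a2 by 2.44 and -1.03, and Col5a2 by 2.72 and -0.12. Between the reserve and hypertrophic zones Col1a1 differed by 4.33 at 46 days and -0.29 at 42 days, Col1a2 by 3.79 and -0.73, Col5a2 by 3.47 and -0.62, and Col3a1 by -0.80 and 1.03. Col5a1 differed by 2.04 at 46 days and -2.50 at 42 days between the proliferative and hypertrophic zones.

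In the other zones Col3a1 differed by -0.35 at 46 days and 3.49 at 42 days between reserve and proliferative, and Col5a1 by -0.21 and 3.25 between perichondral and proliferative. Col5a2 differed by -0.75 at 46 days and 0.50 at 42 days between perichondral and reserve.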

How the results depend on the processing

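With 2 arrays per zone, pooled and differing in age, calls depend on the spread that the hypertrophic arrays and the ages add. The arrays share age by label, but age differences did not correlate above 0.1 in every pair of zones. With age as a replicate block, 1 member gene was called between perichondral and proliferative zones. The block gave 2 between reserve and proliferative and 1 by the F test, against 0 without it in each. Over all probe sets the block gave 13, 60 and 96 calls in the same order, against 0, 7 and 12 without it. Leaving out 1 array at a time gave 0 to 2 member genes between reserve and proliferative, 0 to 1 between reserve and hypertrophic, 0 to 1 between proliferative and hypertrophic, and 0 to 2 by the F test. The fit on the reserve and proliferative arrays alone called 1, and centring on medians called 1 for age. Under the same alternatives the calls over all probe sets ran from 0 to 9 against 0 (perichondral minus reserve), 0 to 13 against 0 (perichondral minus proliferative), 0 to 55 against 9 (perichondral minus hypertrophic), 0 to 60 against 7 (reserve minus proliferative), 0 to 167 against 7 (reserve minus hypertrophic), 0 to 13 against 4 (proliferative minus hypertrophic), 2 to 96 against 12 (F test) and 0 to 140 against 0 (age). The ratio tests could not pass for a lone pair after adjustment, so their lack of calls under the alternatives shows nothing on stability.

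Signs of some differences turned, and the cause was not tested. The perichondral minus reserve difference of Col5a2 was 0.34 with the RNA integrity covariate, 0.076 with the mean of its probe sets, and -0.48 to 0.23 with 1 array left out. With 1 array left out, the perichondral minus hypertrophic differences ran from -1.87 to 2.89 (Col1a1), -1.34 to 2.75 (Col1a2), -0.093 to 2.67 (Col5a1) and -0.48 to 3.08 (Col5a2). The reserve minus hypertrophic ones ran from -0.36 to 4.40 (Col1a1), -0.52 to 3.58 (Col1a2), -0.66 to 0.89 (Col3a1) and -0.35 to 3.20 (Col5a2), and Col3a1 had -0.21 with the integrity covariate. The proliferative minus hypertrophic ones ran from -1.61 to 1.15 (Col5a1) and -3.28 to 0.27 (Col5a2). For age, Col3a1 had -0.06 as deposited, -0.30 with centred arrays, and -0.70 to 0.58 with 1 array left out.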
